A study of Mus musculus with 10 samples.

Results

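Retinoic acid genes form a group of 10 among the 21951 protein-coding genes of the mouse annotation. They make, break down or bind retinoic acid, take up retinol or reduce retinaldehyde. They were chosen by name for these roles, with earlier results of these data known, and the choice used no threshold on a measured value. The group holds the synthesis enzymes Aldh1a1, Aldh1a2 and Aldh1a3, the retinaldehyde reductase Dhrs3, the breakdown enzymes Cyp26a1, Cyp26b1 and Cyp26c1, the binding proteins Crabp1 and Crabp2, and the retinol transporter Stra6. The retinoic acid receptors were kept apart. At these 10 genes the repressive histone mark H3K27me3 was examined through peaks called from CUT&Tag, an assay in which a transposase tethered to an antibody cuts out the chromatin that carries the mark.

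Among the 10 samples of the series, 6 are libraries for H3K27me3. They were made from fetal liver cells at E14.5 that were sorted as LSK CD48-CD150+, the surface phenotype of long-term hematopoietic stem cells (LT-HSCs), with 3 libraries from wild-type embryos (WT) and 3 from embryos lacking IκBα, the NF-κB inhibitor encoded by Nfkbia (KO). Both genotypes came from matings of heterozygotes of a germline knockout line (Nfkbia tm1Bal), so IκBα was absent from every tissue of the KO embryos and not from the stem cells alone. No treatment was given to either genotype, and the study counts more embryos than libraries in each, so that a library can hold cells of several embryos. Replicates 1 and 2 were sequenced with 75 bp reads and replicate 3 with 50 bp reads in both genotypes.

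Retinoic acid is made from vitamin A. Retinol enters cells with the help of STRA6, is oxidised reversibly to retinaldehyde, and is then oxidised irreversibly to retinoic acid by the ALDH1A enzymes, while DHRS3 returns retinaldehyde to retinol. CRABP proteins carry retinoic acid within the cell, CYP26 enzymes degrade it, and its nuclear receptors act on chromatin at repeated half-sites, one of them at the promoter of Cyp26a1 itself. H3K27me3 is laid down by PRC2 and usually marks CpG-rich promoters of developmental genes that are silent in the cell at hand. In hematopoietic stem cells retinoic acid signalling is known for its link to dormancy.

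The 6 libraries differed widely in what was called. Between 4160 and 6013 peaks were called in each of the 4 libraries of 75 bp reads, 2325 in KO replicate 3 and 1047 in WT replicate 3, and the covered length ran from 1.90 Mb in WT replicate 3 to 27.8 Mb in WT replicate 2. WT replicate 3 stood apart, since its weakest peak had a total signal of 3344 against 6616 to 7307 in the others. The median peak reached a maximum of 6 to 10 overlapping fragments. Nfkbia carried no peak in any of the 6 libraries, so the peaks give no check of the genotype. None of 12 blood stem cell genes, such as Kit and Runx1, had a promoter peak in any library. The liver factor Foxa2, 1 of 6 hepatocyte genes, and the endothelial genes Sox17, Erg and Kdr, 3 of 6, had one in at least 1 library, beside 15.9% of all protein-coding genes. A gene under a peak says nothing directly of its RNA.

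Promoter windows reached from 5 kb before to 100 bp after each annotated start site. Of the 10 genes, 7 carried a promoter peak in at least 1 library, against 15.9% of all protein-coding genes. In every library the share of retinoic acid genes lay above the share of all genes. WT replicates 1, 2 and 3 had a peak at 6, 7 and 4 of the 10 promoters, beside 10.6%, 13% and 3.5% of all protein-coding genes. KO replicates 1, 2 and 3 had one at 7, 7 and 6 of the 10, beside 12.9%, 12.2% and 8.11%. The list was chosen with earlier results of these data known, so these shares are a description and carry no test.

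**Figure D1:**
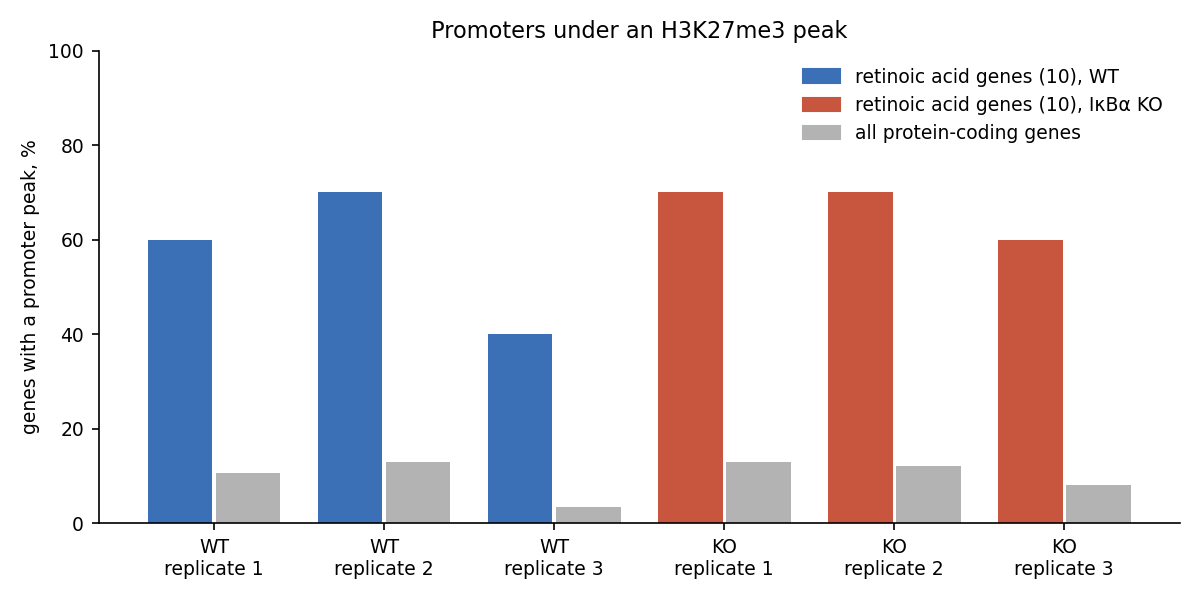
Percent of the 10 retinoic acid genes (coloured bars, WT blue and KO red) and of all protein-coding genes (grey bars) with an H3K27me3 peak at the promoter, for each of the 6 libraries. The coloured bar stands above the grey bar in every library, and the lowest pair is that of WT replicate 3, with 4 of 10 genes against 3.5%.

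The calls followed 4 patterns. Aldh1a2, Aldh1a3 and Crabp2 were called at the promoter in all 6 libraries, as were 2.66% of all protein-coding genes, and each of the 3 kept that at the gene start alone, where 1.92% of all genes did. Cyp26a1, Crabp1 and Stra6 were called in every library but WT replicate 3, the pattern of 3.72% of all genes. Cyp26b1 was called in 4 libraries, at internal start sites only. Aldh1a1, Dhrs3 and Cyp26c1 had no promoter peak in any library, although peaks reached the 3′ end of Cyp26c1 in 5.

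**Figure D2:**
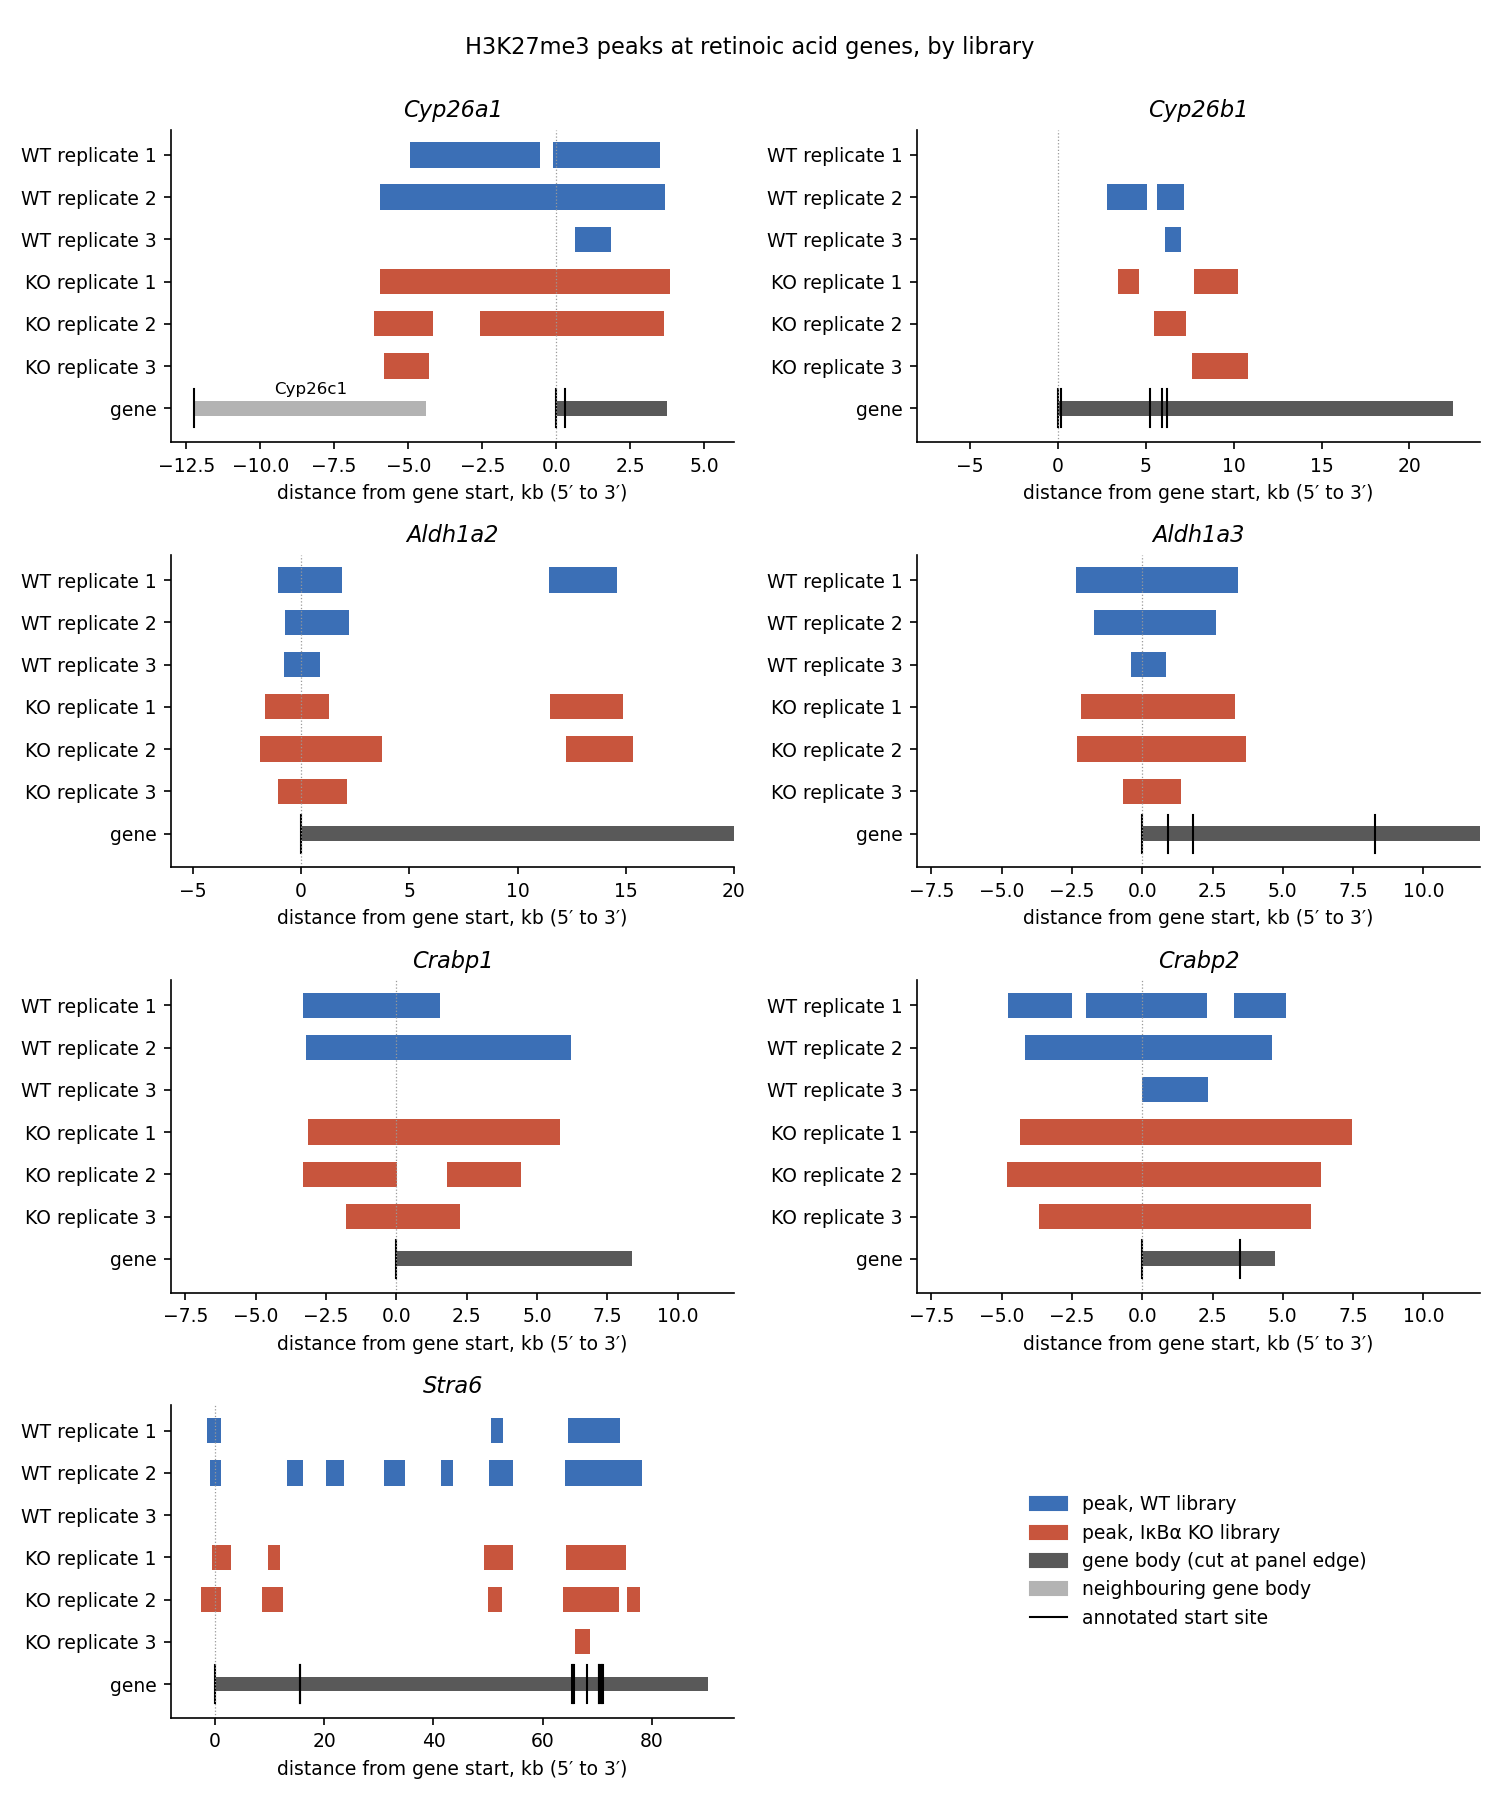
H3K27me3 peaks at the 8 genes that carried any, drawn against the distance from the gene start in kb, in the direction of transcription. Each bar is 1 peak, with WT libraries in blue and KO libraries in red, and the gene body and annotated start sites are drawn in the lowest row. Peaks straddled the gene start of Aldh1a2 and Aldh1a3 in all 6 libraries, lay 2.774 kb or more inside Cyp26b1, and reached the end of Cyp26c1 from the upstream region of Cyp26a1.

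Aldh1a2, the main retinoic acid-producing enzyme of the early embryo, had 1 peak over its only annotated start site in each library. The merged region lay at chr9:71213889-71219520 and held the first exon with its UTR and intronic sequence after it. Its peak was 2977, 2942 and 1681 bp wide in WT replicates 1 to 3. In KO replicates 1 to 3 it was 2978, 5632 and 3185 bp wide. The widest peak was that of KO replicate 2 and the narrowest that of WT replicate 3, while both replicate 1 libraries differed by a single base pair. Total signal, the fragment coverage summed over the peak and not scaled to depth, reached 12582, 10764 and 6308 in the WT libraries. Those of KO reached 15860, 22072 and 14807. Every KO value exceeded every WT value on this unscaled measure. Among 717 regions called in all 6 libraries the same was true of 3.07% for total signal and of 2.79% for peak length, and the regions of Aldh1a2 (both measures) and Crabp2 (peak length) were among them. At Aldh1a2 the groups overlapped once each library was set against its own peaks, since the peak stood at percentiles 51.1, 41.0 and 86.9 of total signal within its WT library and at 55.8, 78.3 and 75.1 within its KO library. A second region inside the first part of the gene, intronic at chr9:71227259-71231116, was called in WT replicate 1 and in KO replicates 1 and 2.

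The 250 bases before the Aldh1a2 start were among the richest in CpG of the group, with 40 CpG and 1.07 times the CpG number that their base composition gives by chance (the observed over expected ratio), against a median of 0.56 over all genes with such a window. They are shown because this start was under a peak in all 6 libraries. The sequence is that of RefSeq on GRCm38.p6, plus strand, chr9:71215539-71215788, 5′ to 3′, with each CpG in capitals.
Aldh1a2: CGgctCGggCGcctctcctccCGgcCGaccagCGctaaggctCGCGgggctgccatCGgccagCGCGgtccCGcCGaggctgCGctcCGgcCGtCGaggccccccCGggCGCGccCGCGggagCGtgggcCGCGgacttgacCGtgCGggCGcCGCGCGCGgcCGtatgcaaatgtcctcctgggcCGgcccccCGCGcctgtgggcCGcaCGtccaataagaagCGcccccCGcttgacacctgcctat

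Aldh1a3, an enzyme of the same step, had 1 peak over its gene start in each library, within chr7:66423813-66429865 and over the first exons and introns. The peak was 5740, 4342 and 1267 bp wide in WT and 5474, 6039 and 2075 bp in KO. Both 50 bp libraries had the narrow peaks, that of WT replicate 3 being the narrower. WT libraries had total signals of 24799, 28553 and 4903 here, KO libraries of 33650, 25621 and 8913, with the groups overlapping. Its mean signal per bp, not scaled to depth, was 4.91 ± 1.15 (SD, n = 6 libraries), and stood at percentiles 79.1, 99.8 and 94.5 of all peaks in WT replicates 1 to 3 and at 98.5, 74.0 and 70.9 in the KO replicates.

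Aldh1a1 and Dhrs3 were the 2 members with no peak at the promoter or in the gene body in any library. Aldh1a1 is the third enzyme of the family, and the nearest peak to its gene start (chr19:20492715-20643465, plus strand) lay 978.1 to 3537 kb away, depending on the library. For Dhrs3, whose product acts against the ALDH1A enzymes by lowering their substrate, the gene at chr4:144892827-144928209 had its nearest peak 403.7 to 2808 kb away. The distance was longest in WT replicate 3 for both genes. Peaks were the strongest enriched blocks of each library, so a promoter without one can still carry the mark below the level that was called.

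The promoters without a peak differed in sequence. The window before the first start of Dhrs3 held 19 CpG with an observed over expected ratio of 0.81, close to that of Cyp26a1 (0.84) and below that of Aldh1a2 (1.07), which both carried peaks. The windows of the other 2 RefSeq starts of Dhrs3 with a sequence had ratios of 0.62 and 0.57. Aldh1a1 had 3 CpG and a ratio of 0.26 before its first start, and 1 CpG and a ratio of 0.07 before its downstream start. Over all genes with a window, 16.9% of those with a ratio of at least 0.6 and 13.8% of those below it had a promoter peak in at least 1 library. The window before the first start of Dhrs3 and that before the downstream start of Aldh1a1 are shown for contrast with Aldh1a2, with each CpG in capitals, from RefSeq on GRCm38.p6 and on the plus strand (Dhrs3 chr4:144892577-144892826, Aldh1a1 chr19:20601718-20601967).
Dhrs3: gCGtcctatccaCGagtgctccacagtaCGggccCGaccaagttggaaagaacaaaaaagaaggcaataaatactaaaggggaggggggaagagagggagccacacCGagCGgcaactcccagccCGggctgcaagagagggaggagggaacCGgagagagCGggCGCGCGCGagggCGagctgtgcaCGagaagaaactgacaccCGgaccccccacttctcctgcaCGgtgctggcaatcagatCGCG
Aldh1a1: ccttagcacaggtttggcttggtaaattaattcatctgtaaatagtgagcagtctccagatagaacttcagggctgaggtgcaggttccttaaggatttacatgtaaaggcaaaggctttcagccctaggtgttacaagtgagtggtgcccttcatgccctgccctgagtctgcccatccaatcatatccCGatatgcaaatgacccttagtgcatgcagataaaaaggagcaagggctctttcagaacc

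Cyp26a1 and Cyp26c1, 2 of the retinoic acid-degrading cytochromes, lie head to tail on chromosome 19 with a gap of 4399 bp between the end of Cyp26c1 and the start of Cyp26a1, and shared their peaks. The merged region ran over chr19:37691657-37701651. It took in the last exons of Cyp26c1, the gap and the whole of Cyp26a1. A single peak of 9628 bp in WT replicate 2 and of 9812 bp in KO replicate 1 ran from the last 1559 bp of Cyp26c1 across the gap and over Cyp26a1. WT replicate 1 had a peak of 4389 bp upstream of Cyp26a1 and a peak of 3619 bp over it, and KO replicate 2 had 1966 bp upstream and 6221 bp over it. The break between the pair of peaks lay at another place in each. In the 50 bp libraries the region was reduced to 1 short peak, from 633 to 1833 bp relative to the Cyp26a1 start in WT replicate 3 and from -5828 to -4303 bp in KO replicate 3. The promoter call in KO replicate 3 thus came from the end of Cyp26c1 and its missing call in WT replicate 3 from a peak that began inside the gene. Summed over the region, total signal reached 30977, 44185 and 3381 in WT against 52040, 35534 and 7138 in KO, so the groups overlapped and the lowest values were those of the 50 bp libraries. The start of Cyp26c1 itself was 6.076 kb or more from the nearest peak in every library.

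The Cyp26a1 promoter is shown because it holds the retinoic acid response element of the pathway's own feedback enzyme. Half-sites could read AGGTCA in the usual form, AGTTCA as its common variant, and equally either GGGTCA as a further spelling or the last one, GGTTCA. A direct repeat of these with a spacer of 5 bases (DR5) was searched on both strands of the 250 bases before each start. Cyp26a1 held 1 match, on the minus strand, 16 to 32 bases before the RefSeq start, and no other member window did. The repeat itself, at chr19:37697776-37697792, lay under a peak in WT replicates 1 and 2 and KO replicates 1 and 2 and in neither 50 bp library. Among 32851 windows of all genes, 0.0883% held a DR5. With a spacer of 1 or 2 bases (DR1, DR2) no member window held a match, as against 0.164% and 0.174% of all windows. The sequence is on the plus strand of GRCm38.p6, chr19:37697558-37697807, from RefSeq, with the half-sites, read here as their reverse complement, in capitals.
Cyp26a1: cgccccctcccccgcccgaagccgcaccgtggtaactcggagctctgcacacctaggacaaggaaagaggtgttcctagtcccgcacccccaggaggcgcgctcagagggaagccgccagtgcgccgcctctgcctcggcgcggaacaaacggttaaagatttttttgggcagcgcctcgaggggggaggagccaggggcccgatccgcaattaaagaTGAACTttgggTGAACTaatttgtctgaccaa

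Cyp26b1, the third cytochrome of the family, had no peak within 2.774 kb of its gene start, where its promoter window held 7 CpG and a ratio of 0.27. All of its peaks lay inside the gene, and they differed from library to library. A region 5463 to 7309 bp inside the gene (chr6:84586599-84588445), over exonic sequence with UTR and 2 internal start sites, was called in KO replicate 2 as well as WT replicates 2 and 3. An intronic region 2774 to 5062 bp inside was called in WT replicate 2 and KO replicate 1. The third region, 7613 to 10809 bp inside (chr6:84583099-84586295), was called in KO replicates 1 and 3 and in no WT library, and 2.85% of all 6950 merged regions were likewise called in 2 KO and no WT libraries. Its total signals of 8433 and 8737 stood low in these libraries, at percentiles 20.3 and 31.7. WT replicate 1 had no peak anywhere in the gene. The strongest promoter peak of Cyp26b1 ranked low in each of the 4 libraries that had one, at percentiles of total signal between 5.51 and 33.4.

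Crabp2 encodes a carrier that delivers retinoic acid to its nuclear receptors. It had peaks over its start or just downstream of it in all 6 libraries, and the merged region at chr3:87943874-87956114 covered the whole gene. WT replicate 1 had 3 separate peaks of 2283, 4326 and 1855 bp. WT replicate 2 had 1 peak of 8767 bp and WT replicate 3 had 1 of 2316 bp that began 7 bp after the gene start. KO replicates 1, 2 and 3 each had 1 unbroken peak, of 11798, 11152 and 9681 bp. Every KO peak was thus wider than every WT peak, and each KO peak ended 5998 bp or more from the gene start, whereas WT peaks ended at most 5108 bp from it. All KO peaks and the last peak of WT replicate 1 ran past the end of the gene. The region held a total signal of 30311, 42853 and 8215 in WT against 48811, 48701 and 37369 in KO. WT replicate 2 lay above KO replicate 3 on this unscaled measure, so the groups overlapped. KO replicate 3 had fewer peaks than the 75 bp libraries, yet its Crabp2 peak stood at percentile 98.7 of total signal in its library, beside 96.0 in WT replicate 3.

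Crabp1, a cytoplasmic carrier linked to retinoic acid breakdown, was called in every library but WT replicate 3, within chr9:54761418-54770952. Its peak over the start was 4867 and 9430 bp wide in WT replicates 1 and 2. In KO replicates 1, 2 and 3 the corresponding peak was 8980, 3350 and 4044 bp wide, and KO replicate 2 had a second peak of 2656 bp inside the gene. Widths overlapped between genotypes. Total signal of the region came to 21669 and 36837 in the WT libraries that had it and 38570, 21464 and 11983 in KO. In WT replicate 3 the nearest peak to the Crabp1 start was 64.61 kb away.

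Stra6, the membrane transporter of retinol, had the most scattered peaks and 12 annotated start sites. A cluster of 9 of them, 65300 to 71022 bp inside the longest gene model, lay under a broad region at chr9:58127497-58141892. Its main peak was 9451 and 13952 bp wide in WT replicates 1 and 2, 11165 and 10309 bp in KO replicates 1 and 2, and 2749 bp in KO replicate 3. WT replicate 3 had no peak in the gene. In the 4 libraries of 75 bp reads this peak was among the strongest of all, with percentiles of total signal between 95.7 and 97.8, whereas in KO replicate 3 it stood at 9.46. The far upstream start of the gene had a separate peak, within chr9:58061287-58066669, in both 75 bp libraries of each genotype, and that peak also overlapped the promoters of Ccdc33 and of the antisense gene Gm16131 in these 4 libraries. An intronic region 49162 to 54634 bp inside the gene was called in the same 4 libraries. WT replicate 2 alone had 4 further peaks, 13105 to 43593 bp inside the gene, and KO replicates 1 and 2 had 1 further peak, 8570 to 12458 bp inside.

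The mean signal per bp of the strongest promoter peak, a level per length that is not scaled to depth, was 4.91 ± 1.15 at Aldh1a3 (n = 6), 4.72 ± 0.83 at Cyp26b1 (n = 4), 4.63 ± 0.42 at Cyp26a1 (n = 5), 4.26 ± 0.64 at Aldh1a2 (n = 6), 4.19 ± 1.05 at Stra6 (n = 5), 4.04 ± 0.54 at Crabp2 (n = 6) and 3.96 ± 0.59 at Crabp1 (n = 5; SD over the libraries with a call). Neighbours in this order differed by less than the spread between libraries, and the means rest on different libraries, whose median peaks ran from 2.61 in WT replicate 3 to 3.96 in KO replicate 1. Set within its library, the same measure put Cyp26b1 first, with a median percentile of 93.6, before Aldh1a3 (86.8), Stra6 (85.2), Cyp26a1 (83.4), Aldh1a2 (79.1), Crabp2 (68.1) and Crabp1 (62.9). By total signal within the library the order was another one again. Stra6 and Crabp2, with median percentiles of 95.8 and 95.1, stood highest, and Cyp26b1, with 18.3, lowest. The 3 protein-coding genes whose promoter peaks followed Aldh1a3 most closely in within-library percentile of mean signal per bp over the 6 libraries were Igdcc3, Slc12a5 and Mafa, with mean absolute differences of 5.02, 6.55 and 6.78 percentile points.

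The comparison the design implies is whether the mark at these genes differed between LT-HSCs with and without IκBα. It was put to the length of each locus under peaks, from 5 kb upstream of the gene start to the gene end, which has a value in every library. At none of the 8 genes with peaks did WT and KO separate. Over all 3860 protein-coding genes with a peak in their locus, every KO library exceeded every WT library at 1.58% and the reverse held at 0.0777%. The KO mean was the higher at 66.4% of these genes, with a median difference of 544 bp. It was also the higher at 7 of the 8 members, Cyp26a1 being the exception.

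Crabp2 and Aldh1a2 had the largest gains in mean covered length among the members, 2602 and 2514 bp. Each gain was below the larger of its WT and KO SDs but above the smaller. Per Mb of the covered length of the library, both differences turned negative, at -24.1 bp for Crabp2 and -85.0 bp for Aldh1a2. With each library cut to the same number of strongest peaks they stayed positive, at 5291 bp for Crabp2 and 501 bp for Aldh1a2, and the groups overlapped. Crabp2 was covered over 8066, 8767 and 2316 bp in WT and over 9060, 9503 and 8393 bp in KO. The means were 6383 ± 3540 bp and 8985 ± 559 bp (SD, n = 3 each; p = 0.2 in an exact permutation test, as for the tests that follow two-sided). WT replicate 3 was far below the other WT libraries, and WT replicate 2 exceeded KO replicate 3, so the groups overlapped. Without WT replicate 3 the gain was 569 bp, and without WT replicate 2 it was 3794 bp. The overlap held for the locus as set here. For the gene body alone the means were 3564 bp in WT and 4711 bp in KO, and with 10 kb on both sides 6516 and 10877 bp, and in both every KO library exceeded every WT library (n = 3 each; exact permutation test, p = 0.1, the smallest possible), as at 1.85% and 1.47% of all protein-coding genes with a peak there. Aldh1a2 was covered over 6090, 2942 and 1681 bp in WT and over 6367, 8703 and 3185 bp in KO, or 3571 ± 2271 bp against 6085 ± 2770 bp (SD, n = 3 each; exact permutation test, p = 0.2). This gain was 1205 bp without KO replicate 2 and 3964 bp without KO replicate 3. Cyp26c1, at its 3′ end, was covered over 548, 1559 and 0 bp in WT and over 1559, 1742 and 1429 bp in KO (n = 3 each; exact permutation test, p = 0.3). Per Mb of the covered length of the library, its means were 28.7 bp in WT and 110 bp in KO, and every KO library exceeded every WT library (n = 3 each; exact permutation test, p = 0.1), as at 4.82% of all protein-coding genes with a peak. With each library cut to the same number of strongest peaks, the difference at Cyp26c1 was 0 bp. In these 3 genes the KO library had the longer covered length in 3 of 3 same-numbered pairs, for which the exact sign-flip test gave p = 0.25, the smallest it can give with 3 pairs. The same held at 12.4% of the 3860 genes.

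The other members showed no common direction beyond their spread. Cyp26a1 was covered over 8008, 8670 and 1201 bp in WT and over 8739, 7046 and 698 bp in KO (n = 3 each; exact permutation test, p = 0.8). At Cyp26b1 the covered length was 0, 3837 and 888 bp in WT and 3760, 1847 and 3197 bp in KO (n = 3 each; exact permutation test, p = 0.4). Replicate 3 was the lowest KO library at Cyp26a1 and the middle one at Cyp26b1. For Aldh1a3 the lengths were 5740, 4342 and 1267 bp in WT and 5474, 6039 and 2075 bp in KO (n = 3 each; exact permutation test, p = 0.6). Those of Crabp1 were 4867, 9430 and 0 bp in WT and 8980, 6006 and 4044 bp in KO (n = 3 each; exact permutation test, p = 0.7). At Stra6, with 14026, 32780 and 0 bp in WT and 22216, 22759 and 2749 bp in KO, the means were 15602 and 15908 bp (n = 3 each; exact permutation test, p = 1). An exact permutation test of 3 libraries against 3 cannot go below p = 0.1.

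**Figure D3:**
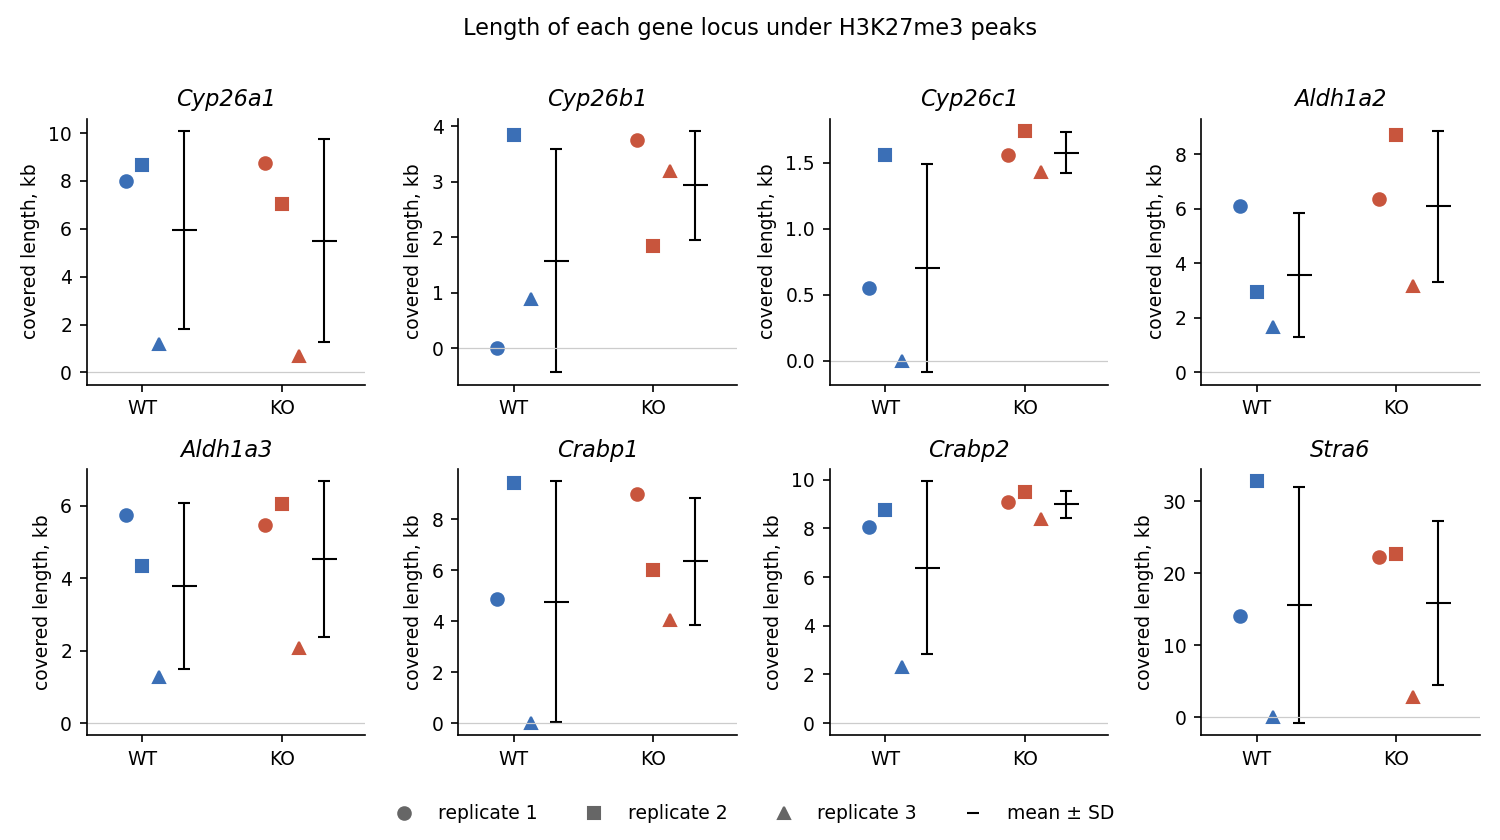
Length of each gene locus under H3K27me3 peaks, in kb, for the 8 genes with peaks. Each point is 1 library (WT blue, KO red, the shape gives the replicate), and the black bars give the mean ± SD of each genotype (n = 3). The genotypes overlap at all 8 genes, and replicate 3 (triangles) is the lowest WT point at all of them except Cyp26b1.

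Signal was then compared after each library had been set on its own median. At 717 regions called in all 6 libraries, 4 of them at members, limma found 0 regions (0%) past an adjusted p of 0.05, with 4 higher and 4 lower in KO at an unadjusted p under 0.05. At Crabp2 the signal stood at 1.14, 1.25 and 1.76 times the library median over these regions in WT. In KO it stood at 1.33, 1.64 and 2.33 times that median. Each KO library lay above the WT library of the same number, but the groups overlapped, and the difference on the log2 scale was 0.34 ± 0.35 (SE, adjusted p = 0.992), or 0.15 without KO replicate 3 and 0.54 without WT replicate 3. At Aldh1a2 the signal stood at 0.47, 0.31 and 1.35 times the library median in WT against 0.43, 0.74 and 0.92 times in KO. The unscaled separation at Aldh1a2 was therefore not seen on this scale, with a log2 difference of 0.19 ± 0.52 (SE, adjusted p = 0.992) that ran from -0.26 without WT replicate 2 to 0.80 without WT replicate 3. Aldh1a3 and the Cyp26a1 and Cyp26c1 region gave log2 differences of -0.30 ± 0.33 and -0.17 ± 0.46 (SE, adjusted p = 0.992 for both). Without KO replicate 3 these were -0.045 and 0.37.

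In the 4 libraries of 75 bp reads, 2557 regions were called in all of them, 8 of them at members, and limma again found 0 (0%) past the threshold, with 45 higher and 74 lower in KO at an unadjusted p under 0.05. The largest member difference was at Aldh1a2, where signal was 0.72 and 0.47 times the library median in WT against 0.68 and 1.10 times in KO. The log2 difference there was 0.57 ± 0.39 (SE, adjusted p = 0.996), or 0.22 without KO replicate 2 and 0.92 without KO replicate 1. The Stra6 region at the far upstream start followed with 0.50 ± 0.37 (SE, adjusted p = 0.996), or 0.092 and 0.90 without the same libraries. At Crabp2 both KO values, 2.09 and 2.42 times the library median, exceeded both WT values, 1.74 and 1.86 times it. The log2 difference at Crabp2 was 0.32 ± 0.31 (SE, adjusted p = 0.999), or 0.21 without KO replicate 2. Such a separation of 2 against 2 libraries, seen at 2 of the 8 member regions, was common, since both KO values exceeded both WT values at 14.8% of the 2557 regions and lay below both at 16.9%. The log2 differences at the other 5 member regions lay between -0.09 at Crabp1 and 0.20 at the Stra6 start cluster. Each was smaller than its SE, and that of the Stra6 start cluster was 0.021 without KO replicate 2. Member regions called in fewer libraries entered neither fit.

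**Figure D4:**
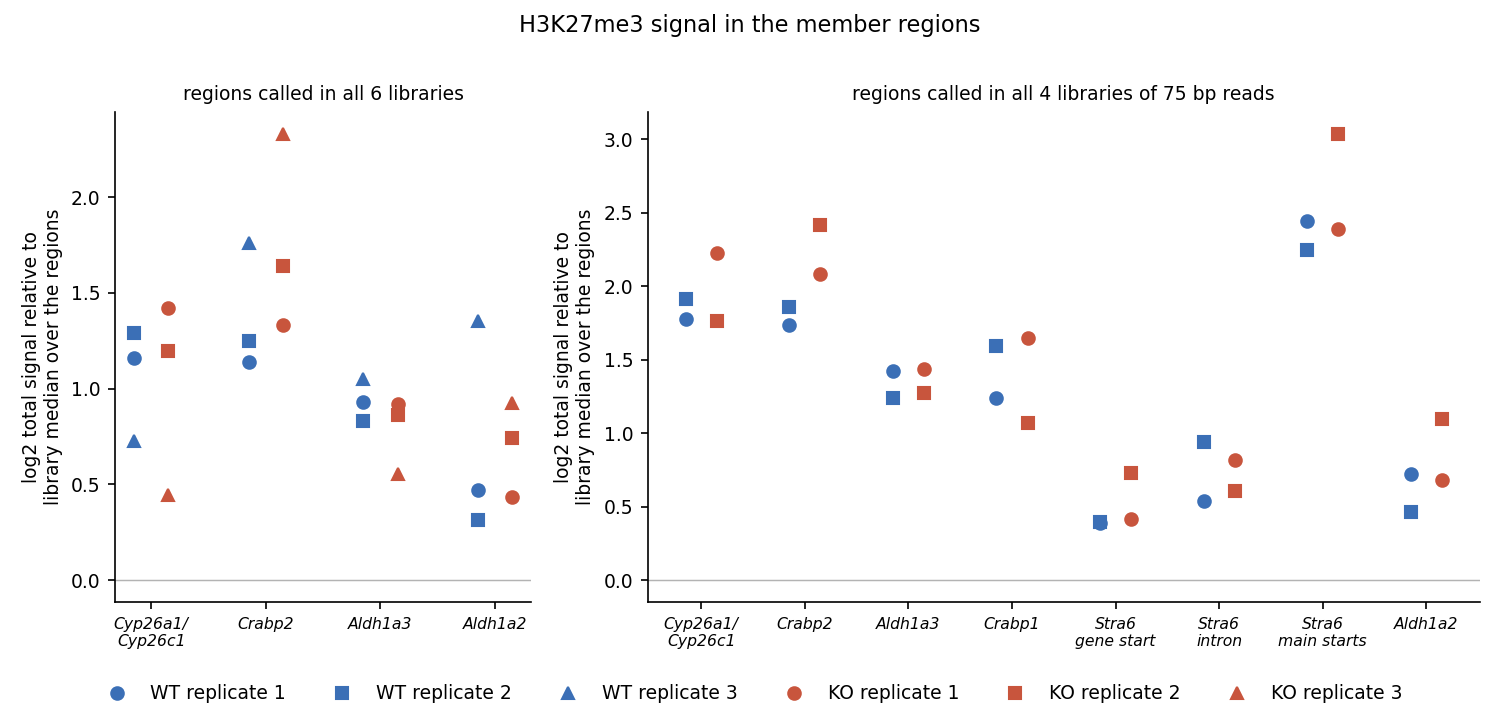
Total H3K27me3 signal of each member region as a ratio to the median of its library. The left panel shows regions called in all 6 libraries, the right panel those called in all 4 libraries of 75 bp reads. Values are plotted as ratios although the axis label reads log2, so the horizontal grey line does not mark the library median. Points are libraries, WT in blue and KO in red, with the replicate given by shape. In the left panel the genotypes overlap at each region, and in the right panel both KO points lie above both WT points at Crabp2 and at the Stra6 gene start, as at 14.8% of all regions of that panel.

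The number of called members also moved with the size of the peak lists. KO libraries had 6.67 ± 0.58 called members and WT libraries 5.67 ± 1.53 (SD, n = 3 each), a difference of 1 that was within the pooled SD of 1.15. When each library was cut to its 1047 strongest peaks, the number in WT replicate 3, WT libraries had 3, 5 and 4 members called and KO libraries 5, 4 and 3. The corresponding shares of all protein-coding genes were 3.93%, 3.84% and 3.5% in WT and 4.36%, 3.93% and 4.21% in KO. Among these strongest peaks Aldh1a3 and Crabp2 were called in 5 libraries each, Crabp1 and Stra6 in 4 each, Cyp26a1 in 3, Aldh1a2 in 2 and Cyp26b1 in 1.

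Other genes of the pathway were counted in the same way, beside the 15.9% of all protein-coding genes with a promoter peak in at least 1 library. Of 6 retinoic acid receptor genes, 3 had one. Rarg had one in WT replicates 1 and 2 and all 3 KO libraries, Rxrg in WT replicates 1 and 2 and KO replicates 1 and 2, and Rara in KO replicate 1. The total signals at Rarg were 17243 and 12663 in these WT libraries and 11802, 23935 and 7695 in KO, so that the genotypes overlapped. Of 29 other genes of retinol and retinaldehyde handling found in the annotation, 3 had a promoter peak in at least 1 library, a share below that of all genes. Lrat, which esterifies retinol for storage, had one in 5 libraries, with total signals from 10398 to 20339, the ends of the range being WT replicates 1 and 2, and with 12937, 11759 and 10703 in KO. Rbp4, the retinol carrier of plasma, had one in WT replicates 1 and 2 and KO replicate 1, with 8478, 19192 and 10961. The remaining one, Stra6l, was called in 2 libraries.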

How the data were processed

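H3K27me3 CUT&Tag was deposited as raw reads, coverage tracks and 1 peak list per library, and only the peak lists were used here. The authors trimmed reads (Trim Galore 0.6.6), aligned them to GRCm38 (Bowtie2 2.4.4), removed duplicates, multi-mapped and poorly mapped reads, and called peaks per library with SEACR 1.3 in stringent mode, without IgG, keeping the strongest blocks. The deposited signal columns hold the total and the maximum fragment coverage of each peak as whole numbers, not scaled to depth, so both rise with sequencing depth. Read totals were not used.

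Coordinates are 1-based on GRCm38, with genes from GENCODE M21. A call needed an overlap of at least 1 bp with the promoter window. Covered length was compared by exact permutation over the 20 assignments of the libraries. Log2 total signal, centred on each library median over regions shared by all libraries, was tested with limma 3.58.1 (R 4.3.3) without a block, with Benjamini-Hochberg adjustment over all regions. Python 3.11.15, numpy 2.4.6 and scipy 1.17.1 were used. Promoter sequences came from RefSeq (GRCm38.p6) and matched 8 of 10 members, not Aldh1a3 and Crabp2. Replicate numbers were taken to pair the libraries, since deviations from group means correlated in same-numbered pairs (r = 0.27, 0.31 and 0.47 over 717 regions), although WT replicate 2 and KO replicate 1 also gave 0.27. The 0.47 was that of replicate 3, sequenced with 50 bp reads in both genotypes, so pairing and shared read length cannot be told apart there. The study describes the replicates as independent in one place and counts fewer independent experiments than libraries in another, and does not tie embryos to libraries, so p-values measure only the spread between these libraries, which may in part be technical. All 10 members are named. The members and lists were chosen with earlier results of these data known, and the unscaled comparison over shared regions was added after the values were seen. The IκBα libraries were not analysed here.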

Additional observations from a re-analysis of the deposited data

How the results depend on the processing

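No region passed the limma threshold under any of the 11 alternatives over 6 libraries or the 8 over the 75 bp libraries (0 in each, from 0 to 0 with a library left out). With the replicate block, which pairs same-numbered libraries, the counts at an unadjusted p under 0.05 were 8 higher and 17 lower of 717, and 63 and 88 of 2557, and no call changed. Scaling by summed signal moved the median of all regions to -0.26 over 6 libraries.

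The KO minus WT difference in called members, 1 per library, moved by less than the pooled SD of 1.15 under each of the 13 alternatives. Pairing of same-numbered libraries is among these alternatives and leaves the mean difference unchanged by construction. The difference itself was above that SD with an overlap of at least 500 bp (1.33) and without KO replicate 3 (1.33), WT replicate 1 (1.17) or WT replicate 2 (1.67), was 0 with the same number of top peaks, and ranged from 0.17 to 1.67 with a library left out. The number of members whose covered lengths did not overlap between genotypes, 0 as reported, was 1 for the gene body alone and 1 for 10 kb on both sides (Crabp2 in both), 1 as a share of the covered length of the library (Cyp26c1), and 2 with replicates 1 and 2 only (Aldh1a2 and Crabp2). KO was the higher in each, and every KO library exceeded every WT library at 1.85%, 1.47%, 4.82% and 15.6% of all protein-coding genes with a peak under the same settings. With a library left out the number ranged from 0 to 3. It was 1 without WT replicate 1 (4.23% of all genes), 3 without WT replicate 2 (8.76%) and 2 without KO replicate 3 (15.6%).

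Signs changed for differences that had passed no test, and the cause was not tested. As a share of the covered length of the library (bp per Mb), KO minus WT was -85.0 at Aldh1a2, -123 at Aldh1a3 and -24.1 at Crabp2. With top peaks only it was -424 bp at Crabp1, 1696 bp at Cyp26a1, -296 bp at Cyp26b1 and -643 bp at Stra6. With 10 kb on both sides it was 229 bp at Cyp26a1 and -1804 bp at Stra6, and with replicates 1 and 2 only -916 bp at Stra6. For log2 differences over 6 libraries, mean signal per bp gave -0.0011 at Aldh1a2, -0.19 at Crabp2 and 0.12 at Cyp26a1, summed scaling -0.053 at Aldh1a2, maximum signal 0.060 at Cyp26a1 and the floor 0.049 at Cyp26a1. In the 75 bp libraries mean signal per bp gave -0.13 at Aldh1a3, -0.048 at Crabp2 and -0.15 at the Stra6 gene start, and maximum signal 0.058 at Crabp1 and -0.12 at the Stra6 start cluster. With a library left out, covered length differences ranged from -512 to 1974 bp at Aldh1a3, -805 to 3910 bp at Crabp1, -2845 to 1933 bp at Cyp26a1 and -7495 to 8895 bp at Stra6, and log2 differences from -0.26 to 0.80 at Aldh1a2 and -0.49 to 0.37 at Cyp26a1 over 6 libraries. In the 75 bp libraries they ranged from -0.068 to 0.11 at Aldh1a3, -0.40 to 0.22 at Crabp1, -0.060 to 0.27 at Cyp26a1 and -0.43 to 0.38 at the Stra6 intron.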
